A study of Arabidopsis thaliana with 12 samples.

Results

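The 10 genes described here are the *Arabidopsis* C-repeat binding factors *CBF1* (AT4G25490), *CBF2* (AT4G25470) and *CBF3* (AT4G25480, also *DREB1A*) and 7 cold-regulated genes: *COR15A* (AT2G42540), *COR15B* (AT2G42530), *KIN1* (AT5G15960), *KIN2* (AT5G15970), *COR47* (AT1G20440), *ERD10* (AT1G20450) and *LTI30* (AT3G50970). They were taken by gene identifier from a table of 36061 named genes, and were chosen by their known roles with earlier values of these same counts in view. Their expression values are therefore given as a description, without p-values. RNA-seq was performed on rosette leaves of *A. thaliana* Columbia-0, a laboratory accession, in 4 groups of 3 libraries. PHD6-drought plants overexpressed *MtPHD6*, a plant homeodomain finger gene of the legume *Medicago truncatula*, and were deprived of water. WT-drought plants were untransformed and deprived of water. PHD6-control plants carried the same transgene and WT-control plants did not, and both were watered. The sample records give 10 days of treatment for all 12 libraries, the watered ones included, while the methods text names other harvest days. Transgenic plants were homozygous. The line behind each library is not given in the sources used here, nor is the promoter that drives the transgene. No group received a cold treatment, and the *MtPHD6* transcript itself was not analysed here.

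CBF proteins are AP2/ERF-type transcription factors that bind the C-repeat/dehydration-responsive element (CRT/DRE) in promoters and switch on cold-regulated genes. Their own genes are induced within minutes of a temperature drop and are also gated by the circadian clock and by light. *COR15A* and *COR15B* encode small chloroplast stroma proteins that protect membranes during freezing. *KIN1* and *KIN2* encode very short hydrophilic proteins, and *COR47*, *ERD10* and *LTI30* encode acidic or histidine-rich dehydrins. The targets respond to dehydration and to abscisic acid (ABA) as well as to cold.

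The genes sit in tight clusters on the TAIR10.1 assembly, and near-copies matter for how reads are assigned. *CBF2* (chr4:13015250-13016235), *CBF3* (chr4:13018010-13019400) and *CBF1* (chr4:13021780-13022996) lie in this order on the minus strand, each with 1 exon. *COR15B* (chr2:17708593-17710433) and *COR15A* (chr2:17710441-17712330) are neighbours on the minus strand, and so are *COR47* (chr1:7084409-7086873) and *ERD10* (chr1:7087903-7089606). *KIN1* (chr5:5209717-5210826) and *KIN2* (chr5:5211719-5212743) are neighbours on the plus strand. *LTI30* (chr3:18940643-18941611) stands alone among the 10. Coding sequences were 87.3 to 87.5% identical among the CBF genes, 95.0% between *KIN1* and *KIN2*, 83.8% between *COR15A* and *COR15B* and 82.3% between *COR47* and *ERD10*. Of all 50-base stretches of exon, 3.95% in *CBF2*, 2.48% in *CBF1* and 0.596% in *CBF3* also occurred elsewhere in the genome on either strand, and at most 0.166% did in any target. Such a stretch alone does not assign a read to one copy. The study's reads were paired and longer than 50 bases, and the share of reads that could not be assigned was not measured. *COR15B* shares 29.5% of its exonic bases with AT2G42520 on the opposite strand, and *CBF3* shares 2.1% with the long noncoding RNA AT4G07385. Whether the counting used strand is not given in the sources used here.

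The DNA before the coding starts shows which genes hold the letters that CBF proteins recognise. The CRT/DRE core CCGAC, searched on both strands in the 1000 bases before the coding start, was present in 7 of the 10 genes, against 39.4% of the same windows of 27443 genes. These windows include the part of the annotated gene that lies before the coding start. In the window first examined, 250 bases before to 50 after the annotated start, it was present in only 2, *COR15A* and *LTI30* (15% of promoters), and the longer window was chosen after that was seen. All 7 cold-regulated genes held it and none of the 3 CBF genes did. The match nearest to the coding start is shown for each target, in 25 bases from RefSeq TAIR10.1, read in the direction of the gene and with the core in capitals.
COR15A: aatttcatggCCGACctgctttttt
COR15B: aacttgatggCCGACctcttttttc
KIN1: taaatagctaCCGACataaggcaaa
KIN2: taaaaagctaCCGACataaggcaaa
COR47: tattcatctaCCGACttcaagaaat
ERD10: caccgaccgaCCGACgtaaaagaaa
LTI30: cttttacgatGTCGGccaacacgta

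The core centres lay 264 bases before the coding start in *COR15A* (window chr2:17712218-17712242), 263 in *COR15B* (chr2:17710124-17710148), 266 in *COR47* (chr1:7085918-7085942) and 268 in *ERD10* (chr1:7089363-7089387). In *KIN1* (chr5:5209804-5209828) and *KIN2* (chr5:5211771-5211795) they lay at 176 and 183 bases, and in *LTI30* (chr3:18940624-18940648) at 189 bases with 2 more at 258 and 281. Neighbouring genes thus carried the core at similar distances. Of these nearest matches, only the core of *LTI30* lay before the annotated gene start. In the other targets it lay within the annotated gene, between its start and the coding start. The windows of *KIN1* and *KIN2* were identical at 24 of 25 bases and those of *COR15A* and *COR15B* at 20 of 25. *ERD10* held 3 overlapping matches in a row, and the first of them, at 276 bases, matched the *COR47* window at 17 of 25 bases.

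The evening element core AATATCT, a motif of clock-gated promoters, lay near the annotated starts of the CBF genes, but not of these alone. It was found on either strand in all 3 CBF genes and 5 of the 10 genes in the 300-base window around the start, against 11.5% of all promoters. *KIN1* and *LTI30* held it as well. In the gene lists below it was in 4 of 6 other DREB1 and DREB2 factors and 11 of 24 regulators of CBF genes. It was in 4 of 17 other cold targets and 0 of 8 ABA response markers. The 250 bases before each CBF start are shown because the 3 genes differed in expression, with this core in capitals. They span chr4:13022997-13023246, chr4:13016236-13016485 and chr4:13019401-13019650 on the minus strand.
CBF1: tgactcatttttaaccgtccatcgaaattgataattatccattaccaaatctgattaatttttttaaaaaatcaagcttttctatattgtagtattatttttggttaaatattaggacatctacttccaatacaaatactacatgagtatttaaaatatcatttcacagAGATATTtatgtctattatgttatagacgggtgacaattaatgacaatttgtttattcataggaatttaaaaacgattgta
CBF2: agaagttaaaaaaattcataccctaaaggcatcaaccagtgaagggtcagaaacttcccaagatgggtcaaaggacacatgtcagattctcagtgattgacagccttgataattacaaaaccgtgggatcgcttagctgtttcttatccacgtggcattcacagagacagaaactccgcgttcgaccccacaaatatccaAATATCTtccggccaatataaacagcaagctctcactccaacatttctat
CBF3: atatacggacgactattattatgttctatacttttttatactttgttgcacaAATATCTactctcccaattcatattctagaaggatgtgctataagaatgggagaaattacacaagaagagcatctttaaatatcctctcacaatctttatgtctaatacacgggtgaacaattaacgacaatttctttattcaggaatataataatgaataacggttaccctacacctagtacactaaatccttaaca

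Other motifs were less evenly spread. In the same 300-base window, the ABA-responsive element core ACGTG was in 5 of the 10 genes (26.7% of promoters) and the G-box CACGTG, which contains an ACGTG on each strand, in 3 (7.68%). The calmodulin-binding factor (CAMTA) core CGCG was in 1, *CBF2* (13%), and GTGGNG, the core bound by the PHD-finger factor Alfin1 of alfalfa, in 2, *CBF2* and *KIN2* (22.3%). Over the 1000 bases before the coding start, ACGTG was in 10 of 10 genes (54.2%), CACGTG in 7 (15.1%), AATATCT in 9 (30.9%), CGCG in 3 (34.7%) and GTGGNG in 6 (57.8%). A match is a run of letters, and no binding was measured.

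**Figure D1:**
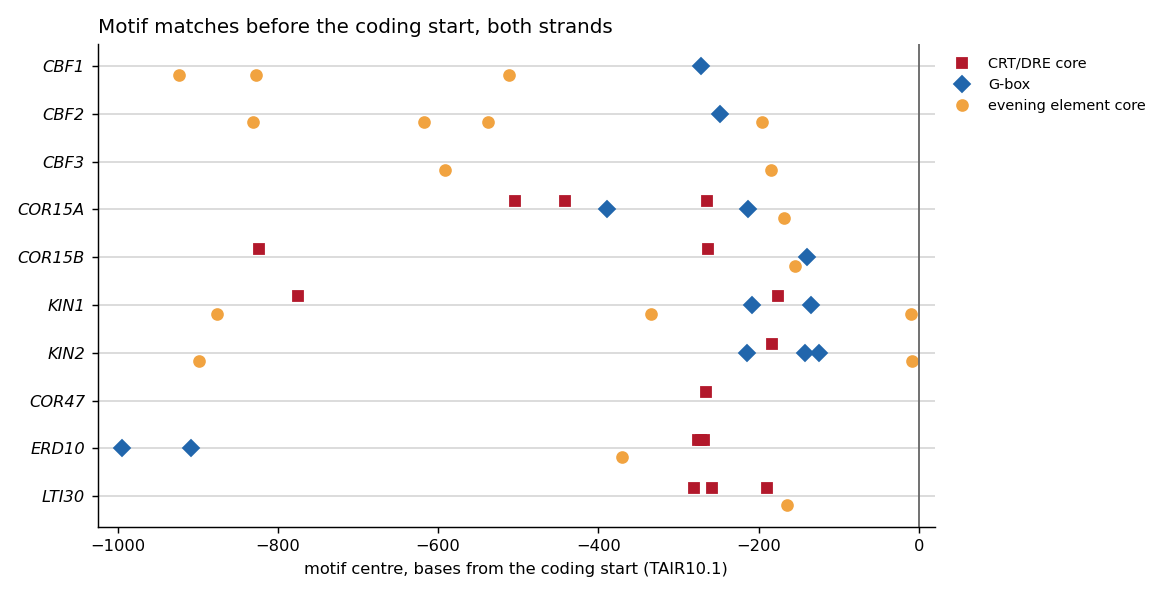
Centres of CRT/DRE core, G-box and evening element core matches on either strand, in bases from the coding start, with 1 line per gene. CRT/DRE cores stand before the coding start of all 7 targets and of no CBF gene, with 5 of the targets holding one between 258 and 276 bases.

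Depth and library structure set how firmly the low genes can be read. Library totals ran between 17839925 and 24717357 counts. *KIN2* had 2843 to 15201 counts per library and *COR47* 4214 to 8844, whereas *CBF1* and *KIN1* had 5 to 80 and 5 to 84 counts. All 10 genes passed the filter on low counts, but *CBF1* and *KIN1* were under 10 counts in some drought libraries. These genes reached the filter's minimum in all 3 libraries of each watered group, where they were higher, and in only 1 or 2 of each drought group. Drought calls of *CBF1* and *KIN1* below carry this limit. Leaf markers summed to between 31592 and 53777 CPM (counts scaled to a common library total) in all groups, root markers to at most 137.1 CPM, flower markers to at most 13.9 CPM and seed storage markers to at most 0.384 CPM. Of the 12 libraries, 4 correlated at least as well with a library of another group as with their own group on average. PHD6-control replicate 3 was among them, with r = 0.987 to WT-drought replicate 1 (over genes, log2 CPM) and a mean r of 0.982 within its group, and it had the lowest value of its group for all 10 genes. PHD6-control replicate 1 had the highest for 8 of them. Values without these libraries are given beside the results they move. In bulk leaf RNA, fewer cells of a type and less RNA per cell cannot be told apart.

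On a scale corrected for exon length, the 10 genes covered a wide range of levels. *KIN2* was the most abundant, with mean levels of 245.6, 326, 751 and 652 CPM per kilobase in PHD6-drought, WT-drought, PHD6-control and WT-control. *CBF1* was the least abundant in each group, with 0.452, 0.301, 1.64 and 0.76 CPM per kilobase in the same order of groups. *KIN2* exceeded its near-copy *KIN1* between 278-fold and 453-fold on this scale. In CPM, 9 of the 10 genes had their highest group mean in PHD6-control. *CBF3* was the exception, with its highest mean in WT-control.

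**Figure D2:**
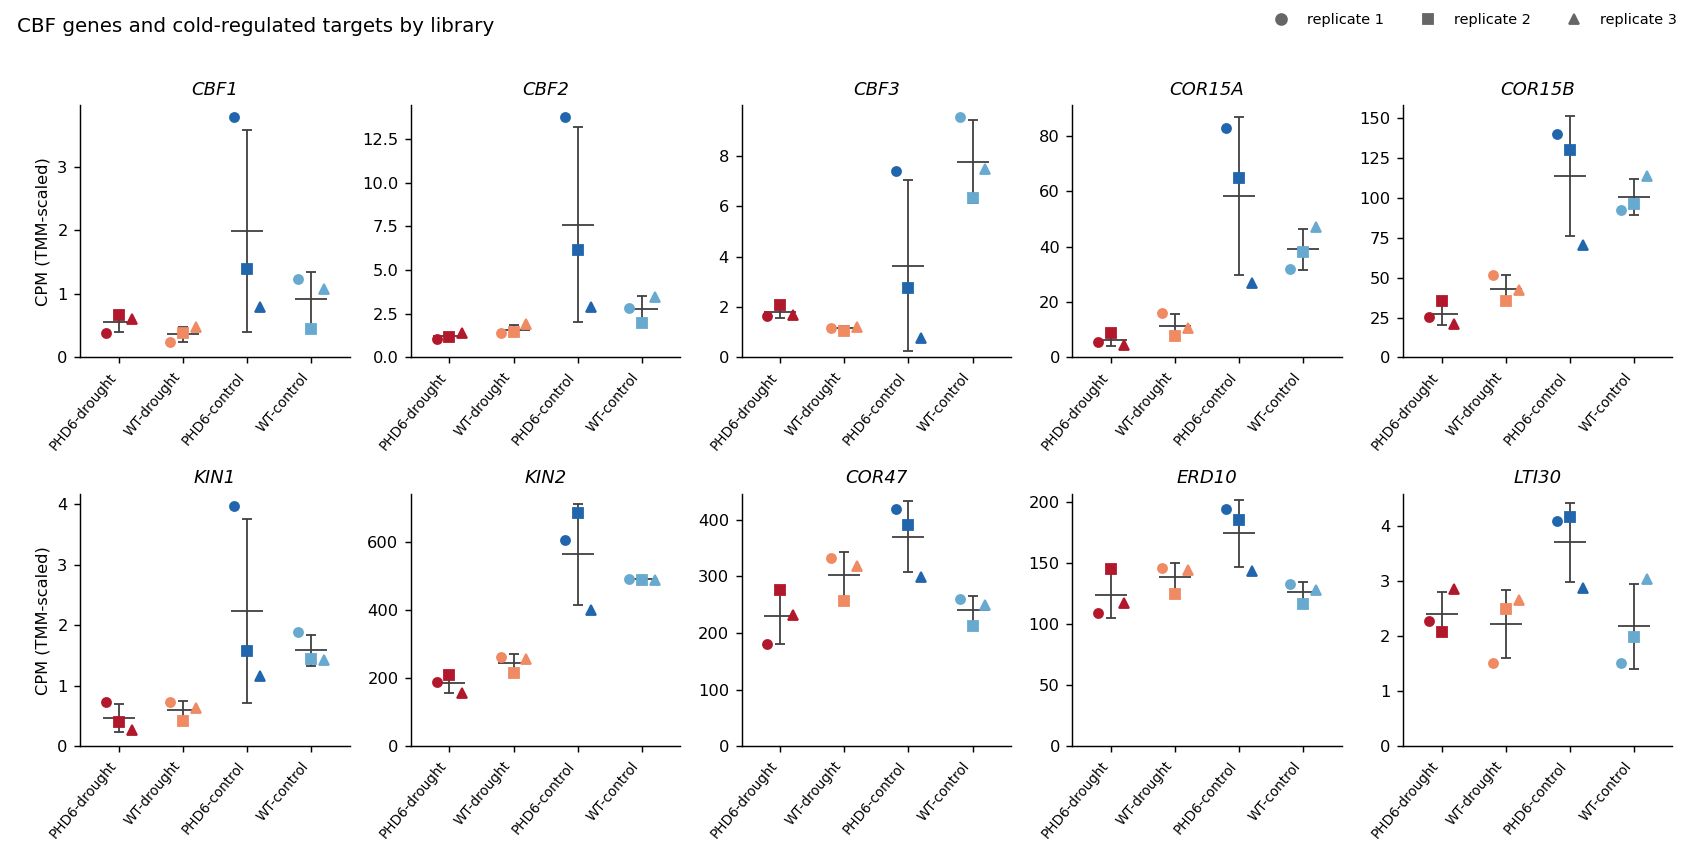
Levels of the 10 genes in CPM (linear axes from 0) in each of the 12 libraries, with marker shape for the replicate and a bar for the group mean ± SD (n = 3). PHD6-control libraries spread widely, with replicate 3 the lowest of its group in every panel, and *CBF3* is the panel in which WT-control stands highest.

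The 3 CBF genes, although copies of each other, did not share 1 pattern over the groups. *CBF2* had 1.07, 1.19 and 1.43 CPM in PHD6-drought, 1.42, 1.43 and 1.91 CPM in WT-drought, 13.8, 6.17 and 2.86 CPM in PHD6-control and 2.85, 1.98 and 3.48 CPM in WT-control. The watered transgenic plants thus included both the highest library and one within the WT-control range, and every drought library lay below every watered one. *CBF1* had 0.385, 0.661 and 0.603 CPM in PHD6-drought, 0.244, 0.379 and 0.477 CPM in WT-drought, 3.79, 1.4 and 0.788 CPM in PHD6-control and 1.24, 0.451 and 1.08 CPM in WT-control. Its order of libraries within PHD6-control was that of *CBF2*, with 80 counts in replicate 1 and 19 in replicate 3.

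*CBF3* took the opposite position in the watered plants. It had 7.39, 2.75 and 0.788 CPM in PHD6-control, against 9.53, 6.31 and 7.48 CPM in WT-control. Only PHD6-control replicate 1 reached the WT-control range, and the log2 fold change was -1.11 (SE 0.60), where *CBF1* and *CBF2* had 1.10 (SE 0.61) and 1.45 (SE 0.52). Without PHD6-control replicate 1 the *CBF3* value was -2.15, that of *CBF2* was 0.70 and that of *CBF1* was 0.24. Under drought *CBF3* had 1.63, 2.07 and 1.70 CPM in PHD6-drought and 1.17, 1.05 and 1.22 CPM in WT-drought, so the transgenic libraries were then the higher ones and did not overlap with WT-drought. The drought difference of *CBF3* was the largest of the 10 genes in WT plants, at -2.76 (SE 0.22). In transgenic plants it was -0.999 (SE 0.64), and 0.04 without PHD6-control replicate 1.

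The makeup of CBF transcripts within a library does not depend on how libraries are scaled, and it differed between the watered groups. Per exonic base, *CBF3* made up 45.5, 46.0 and 38.6% of the reads of the 3 CBF genes in PHD6-drought, 34.0, 30.0 and 27.4% in WT-drought, 23.7, 21.1 and 13.8% in PHD6-control and 63.7, 65.6 and 54.9% in WT-control. The libraries of no group overlapped with those of another in these point values. *CBF2* made up the larger share in PHD6-control, at 62.4 to 70.5%, against 26.9 to 36.0% in WT-control. *CBF1* stayed between 5.35 and 16.8% in the 12 libraries. These shares rest on 58 to 527 CBF counts per library. The *CBF3* share of raw counts had exact 95% binomial (Clopper-Pearson) intervals between 11.04 and 33.7% in the PHD6-control libraries and between 55.2 and 78.4% in the WT-control libraries, which cover counting error only. The intervals reached from 33.5 to 64.7% over the PHD6-drought libraries and from 22.8 to 55.1% over the WT-drought libraries. Within counting error the drought groups thus overlapped with each other, and WT-drought with PHD6-control. PHD6-drought also overlapped with WT-control and, narrowly, with PHD6-control. The split of watered plants held in PHD6-control replicate 3 as in replicates 1 and 2, although that library had the lowest CBF levels of its group.

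**Figure D3:**
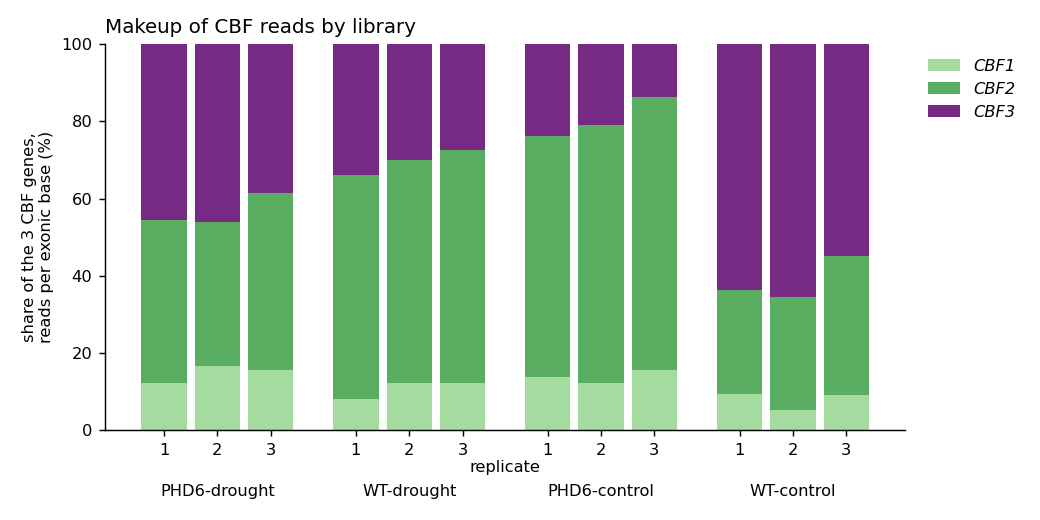
Share of *CBF1*, *CBF2* and *CBF3* in the reads of the 3 CBF genes per exonic base (%), in each of the 12 libraries. *CBF3* holds 54.9 to 65.6% in WT-control and 13.8 to 23.7% in PHD6-control, and between these under drought.

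The chloroplast-targeted COR15 pair was lower in dry leaves of both genotypes. *COR15A* had 5.61, 8.78 and 4.44 CPM in PHD6-drought, 15.9, 7.91 and 10.7 CPM in WT-drought, 83.1, 64.8 and 27.0 CPM in PHD6-control and 32.0, 38.2 and 47.0 CPM in WT-control. Both drought groups lay below both watered groups in every library. The log2 fold change with drought was -3.20 (SE 0.42) in transgenic plants and -1.77 (SE 0.24) in WT. *COR15B* averaged 27.3 ± 7.18 CPM in PHD6-drought and 113.5 ± 37.7 CPM in PHD6-control, and 43.1 ± 8.23 CPM in WT-drought and 100.6 ± 11.2 CPM in WT-control (SD, n = 3 each), with drought differences of -2.05 (SE 0.27) and -1.23 (SE 0.14). All *COR15B* libraries of PHD6-drought were below those of WT-drought (log2 fold change -0.64, SE 0.19).

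The KIN pair had the same order of group means at very different levels. *KIN2* had 186.9, 209.9 and 155.8 CPM in PHD6-drought, 260.5, 216.1 and 256.8 CPM in WT-drought, 606, 685 and 399 CPM in PHD6-control and 491, 487 and 489 CPM in WT-control. The drought difference was -1.61 (SE 0.20) in transgenic plants and -1.004 (SE 0.10) in WT, and PHD6-drought was lower than WT-drought by -0.40 on the log2 scale (SE 0.12) with no overlap of libraries. *KIN1* averaged 0.466 ± 0.235 CPM in PHD6-drought and 2.24 ± 1.52 CPM in PHD6-control, and 0.597 ± 0.16 CPM in WT-drought and 1.58 ± 0.26 CPM in WT-control (SD, n = 3 each). With 5 to 17 counts per drought library, a difference between the drought groups was not detectable for *KIN1* at this depth (-0.30, SE 0.45).

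The dehydrin genes did not follow the COR15 and KIN genes in WT plants. *COR47* had 180.5, 276.3 and 231.1 CPM in PHD6-drought, 332.1, 255.9 and 317.9 CPM in WT-drought, 419, 392 and 300 CPM in PHD6-control and 260.4, 212.4 and 249.4 CPM in WT-control. With drought it was lower in transgenic plants (-0.69, SE 0.17) and had a value of 0.32 (SE 0.12) in WT, where 1 WT-drought library lay within the WT-control range. *ERD10* had drought differences of -0.49 (SE 0.14) in transgenic plants and 0.13 (SE 0.09) in WT. *LTI30*, at 28 to 92 counts per library, averaged 2.4 ± 0.404 CPM in PHD6-drought, 2.22 ± 0.612 CPM in WT-drought, 3.69 ± 0.721 CPM in PHD6-control and 2.17 ± 0.776 CPM in WT-control (SD, n = 3 each). For all 3 dehydrins the PHD6-control mean was the highest, and WT-control was at or next to the lowest place.

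Counts of called genes are given beside those of all 19681 genes tested. Genes were called at an adjusted p under 0.05 in edgeR's quasi-likelihood test. In PHD6-drought vs PHD6-control, 7 of the 10 were called lower (*CBF2*, *COR15A*, *COR15B*, *KIN1*, *KIN2*, *COR47* and *ERD10*) and 0 higher, where 12.7% of all genes were called lower and 9.49% higher. Libraries of both groups did not overlap for 8 of the 10 (41.3% of all genes), and the median log2 fold change was -1.73 (0.02 over all genes). Without PHD6-control replicate 3 all 10 were called lower, and without PHD6-control replicate 1 or PHD6-drought replicate 3 the count was 4. In the reported fit no member had a positive value, and 0 were higher and 9 lower at an unadjusted p under 0.05. Without PHD6-control replicate 1, *CBF3* had 0.042. DESeq2 called 0 higher and 8 lower. Since the genes were chosen with this contrast known, nothing is read from these counts.

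In WT-drought vs WT-control, 5 were called lower (*CBF3*, *COR15A*, *COR15B*, *KIN1* and *KIN2*), where 7.18% of all genes were, and 0 higher, where 12.2% were. Libraries did not overlap for 6 of the 10 (37.4%), and the median was -1.12 (-0.01 over all genes). Over all genes 2406 were called higher and 1413 lower, against 2023 and 2292 with upper-quartile scaling. *COR47* was called higher when replicate numbers entered as a block (0.32, SE 0.0898). At an unadjusted p under 0.05 there were 1 higher and 7 lower, and DESeq2 called 0 higher and 5 lower. With at least 1 CPM required in all libraries, 3 were called lower, because *CBF3* and *KIN1* then left the test.

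**Figure D4:**
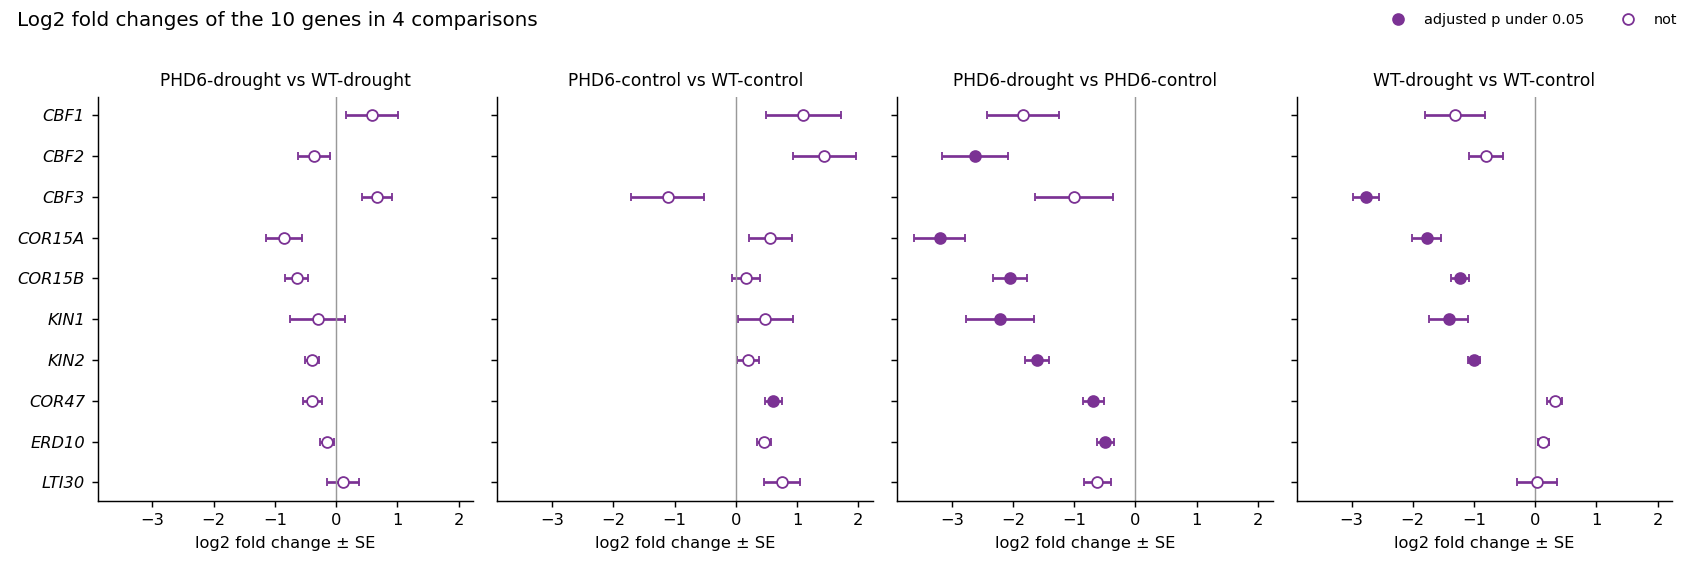
Log2 fold change ± SE of the 10 genes in 4 comparisons, with filled points for an adjusted p under 0.05. Values lie left of 0 for all 10 genes in PHD6-drought vs PHD6-control and for 7 in WT-drought vs WT-control, and *CBF3* lies on the other side from *CBF1* and *CBF2* in PHD6-control vs WT-control.

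In PHD6-control vs WT-control, 9 of the 10 had a positive value, with a median of 0.52 (-0.02 over all genes). Only *COR47* was called higher (0.61, SE 0.14), where 4.26% of all genes were, and 0 were called lower, where 0.722% were. *COR47* and *ERD10* (0.46, SE 0.12) had libraries that did not overlap, 2 of 10 against 24.2% of all genes. The *COR47* call was lost without any 1 of 5 libraries, PHD6-control replicate 3 excepted. Without PHD6-control replicate 3, 4 genes were called higher (*CBF2*, *COR15A*, *COR47* and *ERD10*). At an unadjusted p under 0.05 there were 4 higher and 0 lower, and DESeq2 called 3 higher and 0 lower.

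In PHD6-drought vs WT-drought, 7 had a negative value and the median was -0.33 (0.01 over all genes). The edgeR test called 0 higher and 0 lower, where 2.65% and 3.89% of all genes were. At an unadjusted p under 0.05 there were 1 higher and 4 lower, and DESeq2 called 0 higher and 3 lower (*COR15A*, *COR15B* and *KIN2*). Libraries did not overlap for 3 of the 10, *CBF3*, *COR15B* and *KIN2* (28.5%). Without PHD6-drought replicate 2, *COR15B* was called lower.

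The interaction asks whether the drought difference was the same with and without the transgene, as (PHD6-drought minus PHD6-control) minus (WT-drought minus WT-control). It was negative for 9 of the 10 genes, with a median of -0.73 (0.02 over all genes), and 1.76 (SE 0.77) for *CBF3*. *COR47* alone was called lower (-1.01, SE 0.23), where 5.6% of all genes were, and 0 were called higher, where 1.38% were. These are 1102 lower and 271 higher genes, against 1006 and 491 with upper-quartile scaling. Without PHD6-control replicate 3, 6 were called, and without WT-drought replicate 1 there were 0. Without PHD6-control replicate 1, *CBF3* was called higher (2.80) beside *COR47*. At an unadjusted p under 0.05 there were 1 higher and 6 lower, and DESeq2 called 0 higher and 2 lower. PHD6-control and WT-control each enter 2 of the 4 comparisons, as do the drought groups, so the comparisons are not independent.

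Other genes of the pathway, which are not among the 10, were tested in the same fits. These gene lists, too, were chosen with earlier results of these data known. Their counts and p-values are therefore a description and no independent test of the pathway. The paper had already named *ZAT10* (as *STZ*) and *CZF1* among genes changed by drought and the transgene. Their counts of called genes stand beside the same shares of all genes, given above for each comparison. First-wave cold factors are transcription factor genes induced by cold in parallel with the CBF genes, and 7 of the 8 listed were expressed enough to test. In PHD6-control vs WT-control 4 rose and 0 fell: *MYB73*, *RAV1*, *ZAT10* and *CZF1*. *MYB73* had 38.6, 37.9 and 36.8 CPM in PHD6-drought, 96.2, 65.6 and 59.1 CPM in WT-drought, 223.5, 174.9 and 160.6 CPM in PHD6-control and 37.8, 35.4 and 47.2 CPM in WT-control. It was thus high in all 3 watered transgenic libraries, replicate 3 included (log2 fold change 2.21, SE 0.16, edgeR adjusted p = 4.0e-04). *RAV1* rose by 1.97 (SE 0.15, edgeR adjusted p = 6.6e-04), *ZAT10*, a zinc-finger repressor, by 2.92 (SE 0.46, adjusted p = 0.00896) and *CZF1* by 1.38 (SE 0.25, adjusted p = 0.0184). The *ZAT10* call was lost without WT-control replicate 3, and the *CZF1* call without WT-control replicate 2 or 3.

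The same 4 factors rose with drought in WT plants, by 0.87 to 1.81 on the log2 scale, and 0 fell, while in transgenic plants *MYB73* (-2.30, SE 0.12, edgeR adjusted p = 4.6e-05) and *RAV1* (-0.76, SE 0.11, adjusted p = 0.00365) fell and 0 rose. With replicate numbers as a block *ZAT12* was also called higher in WT (1.10, SE 0.24, adjusted p = 0.00945). In PHD6-drought vs WT-drought *MYB73* fell (-0.95, SE 0.16, adjusted p = 0.0132), a call lost without PHD6-drought replicate 2. The interaction was called for *MYB73* (-3.17, SE 0.25, adjusted p = 2.2e-05), *RAV1* (-2.14, SE 0.21, adjusted p = 4.7e-05) and *ZAT10* (-2.84, SE 0.55, adjusted p = 0.00593), also without any 1 library. In these factors drought in WT plants went the other way from the COR15 and KIN genes.

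Other CBF and cold targets, 17 genes that were all tested, fell with drought more often than they rose in the reported fits. In PHD6-drought vs PHD6-control 9 fell and 0 rose, and in WT-drought vs WT-control 5 fell and 2 rose. Over the alternatives 6 to 10 fell and 0 to 3 rose in transgenic plants. In WT plants 1 to 10 fell and 1 to 3 rose, so the WT counts depended strongly on the setting. *RD29A*, a CRT/DRE-regulated hydrophilic protein gene, had 54.6, 84.1 and 70.0 CPM in PHD6-drought and 207, 187.3 and 104.6 CPM in PHD6-control, and 56.4, 45.0 and 51.8 CPM in WT-drought and 125.7, 118.3 and 134.9 CPM in WT-control. It fell by 1.26 (SE 0.25, edgeR adjusted p = 0.0106) in transgenic plants and by 1.31 (SE 0.10, adjusted p = 9.3e-05) in WT, with drought and watered libraries apart in both. *RCI2B*, a small membrane protein gene, fell by 1.93 (SE 0.37, adjusted p = 0.00957) and by 1.06 (SE 0.24, adjusted p = 0.0148). *COR413PM1*, *FAD8*, *SEX1* and *RCI2A* fell in transgenic plants by 0.51 to 0.85, and *GOLS3* (-1.67, SE 0.39, adjusted p = 0.0187) and the low *ELIP1* (-2.46, SE 0.64, adjusted p = 0.0279) fell in WT. *COR27*, a cold gene that also acts in the clock, rose in WT with drought (0.61, SE 0.07, adjusted p = 7.2e-04), as did *ERD7* (0.31, SE 0.08, adjusted p = 0.0248). With the block *COR413PM1* (-0.47, SE 0.11, adjusted p = 0.0107) and *COR413IM1* (-0.51, SE 0.0891, adjusted p = 0.0025) were also called lower in WT.

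Between genotypes 2 of the 17 genes of this list were called in each comparison, fewer than with drought. The same held over all genes, so this is not particular to the list. With drought, 12.2% of all genes were called higher and 7.18% lower in WT plants, and 9.49% and 12.7% in transgenic plants. Of all genes, 4.26% were called higher and 0.722% lower in PHD6-control vs WT-control. In PHD6-drought vs WT-drought these shares were 2.65% and 3.89%. In PHD6-control vs WT-control *COR27* (0.30, SE 0.07, edgeR adjusted p = 0.044) and *ERD7* (0.36, SE 0.08, adjusted p = 0.0441) rose and 0 fell. In PHD6-drought vs WT-drought *SEX1* (-0.34, SE 0.08, adjusted p = 0.0327) and *RCI2A* (-0.43, SE 0.10, adjusted p = 0.045) fell and 0 rose. These calls were lost under 6 to 9 of 13 alternatives, leave-one-out settings among them, with adjusted p up to 0.164 for *ERD7* and 0.185 for *RCI2A*. The interaction was called for *COR27* only (-0.42, SE 0.09, adjusted p = 0.0114).

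**Figure D5:**
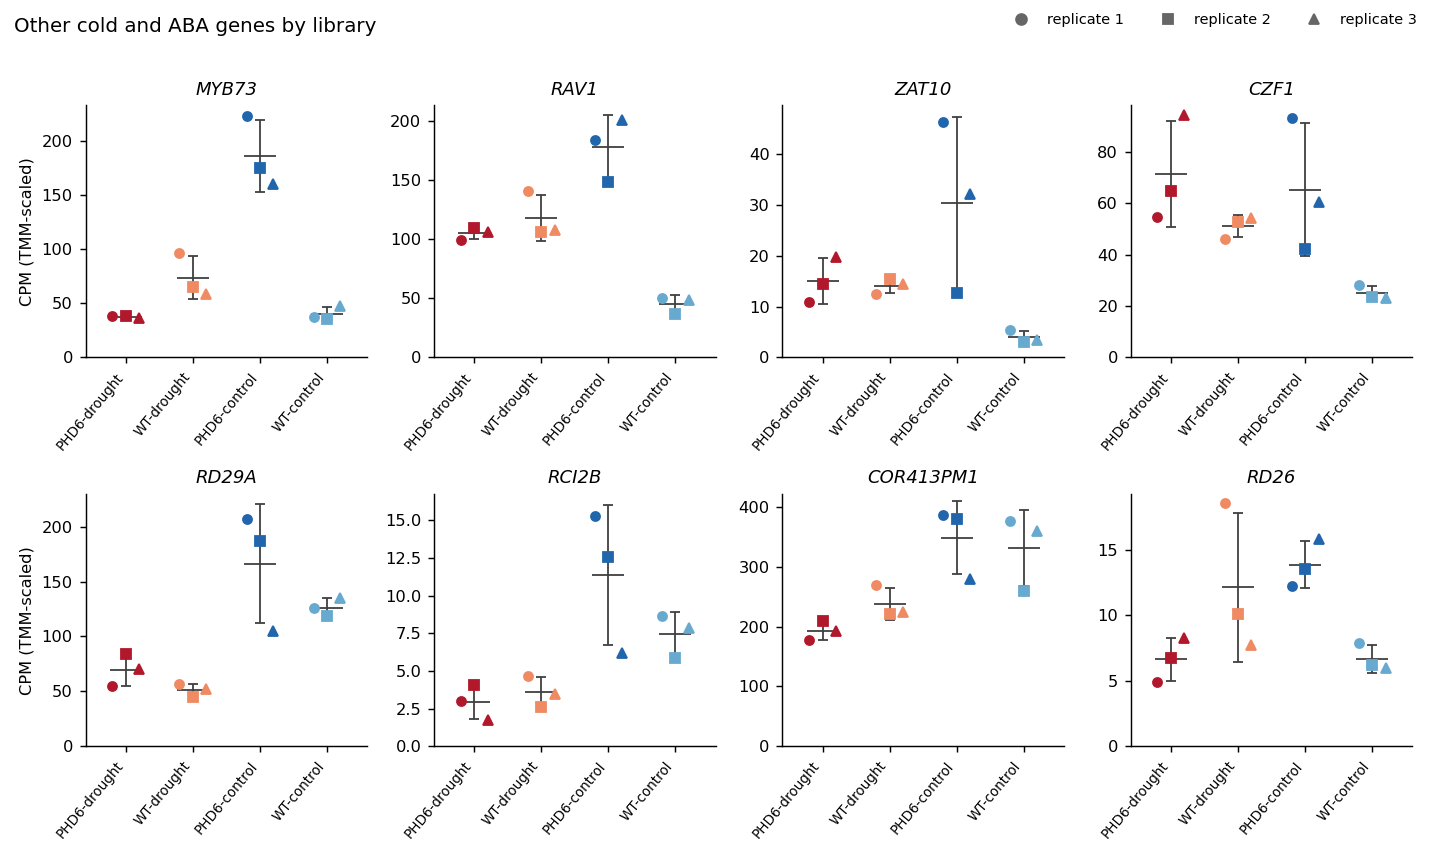
Levels of 8 genes outside the 10 in CPM (linear axes from 0) by library, with marker shape for the replicate and a bar for the group mean ± SD (n = 3). *MYB73* and *RAV1* stand highest in the 3 PHD6-control libraries, while *RD29A*, *RCI2B* and *COR413PM1* have lower means in both drought groups than in the watered groups.

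Regulators of the CBF genes were 24 genes, all of them tested. Of all genes, 2.65% were called higher and 3.89% lower in PHD6-drought vs WT-drought. These shares were 12.2% and 7.18% in WT-drought vs WT-control, and 9.49% and 12.7% in PHD6-drought vs PHD6-control. In PHD6-drought vs WT-drought *OST1*, the ABA- and cold-activated kinase that acts on ICE1, fell (-0.69, SE 0.12, edgeR adjusted p = 0.0157), and so did *ICE2*, a bHLH activator (-0.42, SE 0.09, adjusted p = 0.0285). *SOC1* (0.34, SE 0.07, adjusted p = 0.0307) and *PIF3* (0.37, SE 0.09, adjusted p = 0.0441) rose. Over the alternatives 0 to 2 regulators were called higher and 0 to 2 lower in this comparison. With the replicate block 0 were called higher and 2 lower. In WT-drought vs WT-control 4 rose and 1 fell: *CAMTA3*, a calmodulin-binding activator of *CBF2* (0.70, SE 0.07, adjusted p = 2.8e-04), *OST1* (0.63, SE 0.16, adjusted p = 0.023), *CAMTA2* and *BZR1* rose (*EIN3* also with the block, 0.28, adjusted p = 0.0431), and *PHYB*, a light receptor (-0.55, SE 0.07, adjusted p = 0.00103), fell. In PHD6-drought vs PHD6-control *ICE2*, *OST1*, *PHYB* and *PIF4* fell by 0.26 to 0.55 and 0 rose. The *OST1* calls were lost without WT-drought replicate 1 in both comparisons with WT-drought, also without WT-drought replicate 2 in WT plants, and without PHD6-drought replicate 3 or PHD6-control replicate 2 in transgenic plants. *OST1* was the regulator with an interaction (-1.18, SE 0.22, adjusted p = 0.00499), averaging 16.7 ± 2.1 CPM in PHD6-drought and 24.5 ± 3.26 CPM in PHD6-control, and 27.1 ± 3.44 CPM in WT-drought and 17.5 ± 3.64 CPM in WT-control (SD, n = 3 each).

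In PHD6-control vs WT-control edgeR called 0 of the 24 regulators in either direction, with 4 higher and 2 lower at an unadjusted p under 0.05 and 1 higher in DESeq2. That gene was *CAMTA3* (0.49, SE 0.11, edgeR adjusted p = 0.0508), which was called under 5 of 13 alternatives, with adjusted p between 0.00533 and 0.175 over them. The clock genes *CCA1* and *LHY*, whose products bind evening elements, had log2 fold changes of -0.10 (edgeR adjusted p = 0.925) and -0.05 (adjusted p = 0.972) there. The hour at which leaves were taken is not given in the sources used here, and its part in the CBF levels was not tested.

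Of the 8 ABA response markers 6 were tested. In PHD6-drought vs PHD6-control 4 fell (*RD26*, *ABF3*, *RD20* and *NCED3*) and 0 rose, and in WT-drought vs WT-control 3 fell (*ABF3*, *NCED3* and *RD20*) and 0 rose. *NCED3*, the rate-limiting enzyme gene of ABA synthesis, fell by 1.32 (SE 0.38, edgeR adjusted p = 0.0386) in transgenic plants and by 0.91 (SE 0.19, adjusted p = 0.0102) in WT. *RD26*, a NAC factor gene, rose in PHD6-control vs WT-control (1.05, SE 0.15, adjusted p = 0.00603) and had an interaction (-1.93, SE 0.39, adjusted p = 0.00834). With replicate numbers as a block, *RD26* was also called higher in WT-drought vs WT-control (0.79, SE 0.17, adjusted p = 0.00722) and *HAI1*, a phosphatase gene of ABA signalling, lower (-1.69, SE 0.54, adjusted p = 0.0489).

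Of the other dehydrins 3 of 7 were tested. *RAB18*, an ABA-responsive dehydrin, fell in PHD6-drought vs PHD6-control (-1.05, SE 0.16, edgeR adjusted p = 0.00415), as did *HIRD11* (-0.35, SE 0.08, adjusted p = 0.0148). *ERD14*, a close relative of *COR47* and *ERD10*, rose in WT-drought vs WT-control (0.35, SE 0.10, adjusted p = 0.0334), where *RAB18* was called lower with the block (-0.70, SE 0.15, adjusted p = 0.00646). Of the other DREB1 and DREB2 factors 3 of 6 were tested, and the edgeR fits without a block and DESeq2 called 0 in any comparison on the reported filter and libraries. In PHD6-drought vs PHD6-control 1 was higher at an unadjusted p under 0.05. There 1 was called higher with the replicate block, and up to 2 over the alternatives. *DREB2A*, the main dehydration-responsive factor that binds the same element, had 0.33 (SE 0.20, edgeR adjusted p = 0.294) with drought in WT and 0.49 (SE 0.34, adjusted p = 0.346) in transgenic plants.

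Leaf and guard cell markers moved in some of the same comparisons. *CA1*, a leaf carbonic anhydrase gene, fell in PHD6-drought vs WT-drought (-0.55, edgeR adjusted p = 0.044), WT-drought vs WT-control (-1.02, adjusted p = 0.00686) and PHD6-drought vs PHD6-control (-1.56, adjusted p = 4.8e-04). *RCA* fell in the last of these (-0.41, adjusted p = 0.0227). Of 4 guard cell markers *KAT1* fell with drought in transgenic (-0.76, adjusted p = 0.0186) and WT plants (-0.68, adjusted p = 0.0443), and *SLAC1* was called lower in WT with the block (-0.69, adjusted p = 0.0487). Guard cell markers summed to 38.7 to 52.4 CPM in PHD6-drought, 46.1 to 49.5 CPM in WT-drought, 48.1 to 59.6 CPM in PHD6-control and 48.6 to 73.2 CPM in WT-control. The part of these markers in the drought differences was not tested.

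Finally, the 12 libraries were searched for genes whose log2 CPM followed the mean standardised pattern of the 10. The 5 nearest outside the 10 were *TAO1* (r = 0.961), *RCI2B* (r = 0.948), *AXR3* (r = 0.944), AT3G13275 (r = 0.933) and *OEP16-1* (r = 0.929), as a description over 12 libraries that share groups and scaling. *RCI2B* is on the list of cold targets above, with 3.00, 4.06 and 1.75 CPM in PHD6-drought, 4.64, 2.61 and 3.5 CPM in WT-drought, 15.3, 12.6 and 6.22 CPM in PHD6-control and 8.67, 5.86 and 7.88 CPM in WT-control. Like the 10 genes, it was lowest of its group in PHD6-control replicate 3. Among the 10, *CBF2* lay nearest to the mean pattern (r = 0.976), and *CBF3* (r = 0.614) and *LTI30* (r = 0.563) lay farthest from it.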

How the data were processed

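The authors aligned reads with HISAT2 (version 2.0.5) and deposited whole-number read counts per gene made with featureCounts (version 1.5.0-p3). Their own tests used DESeq2 (version 1.16.1). Of 38082 entries, 2021 without a gene name were left out, which held at most 0.463% of the counts of a library. The 12 libraries were grouped by their sample records into 4 groups of 3. The study describes the 3 libraries of a group as biological replicates, and p-values measure the spread between them.

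Each comparison was fitted on its 6 libraries with edgeR's quasi-likelihood F-test (edgeR 4.0.16, R 4.3.3) on counts, with TMM scaling and the filterByExpr filter at a minimum count of 10, which left 19681 genes. The interaction was fitted on 12 libraries. Benjamini-Hochberg adjusted p under 0.05 was called. Levels are CPM, counts scaled to a common library total, with TMM factors over 12 libraries. The steps were tested on simulated counts. Alternatives were DESeq2 (1.42.0) and its size factors, upper-quartile scaling, other filters, a joint fit, a replicate block and leaving out each library.

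Deviations of same-numbered libraries correlated by 0.348, 0.148 and 0.142 in WT-drought vs WT-control, which is a pairing read from the data and not from the records. The values given for that comparison are from the fit without a block, and the blocked value is printed beside each result whose call it changed. Positions and promoters are from RefSeq TAIR10.1, where 1044 of 1045 gene positions equalled those in the study's gene table. Motifs were searched in 300 bases around the annotated start and, chosen after seeing the data, in 1000 bases before the coding start.

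The 10 genes, the gene lists and the tests were chosen with earlier results of these data known. The text names all 10, up to 4 genes of each list with the smallest p in a comparison, called genes of lists with few calls, and the 5 other genes most like the mean pattern. Further names given for called genes or block-dependent calls were chosen after their values were seen.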

Additional observations from a re-analysis of the deposited data

Results flagged for a closer look

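The drought difference differed with and without the transgene, by the interaction term of edgeR's quasi-likelihood test over 12 libraries, in 7 of the genes described. These were 1 of the 10 genes, 1 of 24 regulators of CBF genes and 3 of 7 first-wave cold factors tested. The others were 1 of 17 other cold targets and 1 of 6 ABA response markers tested. Of all 19681 genes tested, 5.6% were called lower and 1.38% higher, and nothing is read from the count of 7. The log2 values were -1.01 for *COR47*, -1.18 for *OST1*, -3.17 for *MYB73*, -2.14 for *RAV1*, -2.84 for *ZAT10*, -0.42 for *COR27* and -1.93 for *RD26*. Of these only *COR47* belongs to the 10 genes. All 7 values are descriptions, because the 10 genes and the gene lists were chosen with earlier results of these data known. The call for *COR47* was lost without WT-drought replicate 1. The other 6 were called under all 18 alternatives run.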

How the results depend on the processing

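Leaving out 1 library at a time gave 0 to 4 of the 10 genes called higher in PHD6-control vs WT-control, 0 to 1 lower in PHD6-drought vs WT-drought, 4 to 7 lower in WT-drought vs WT-control, 4 to 10 lower in PHD6-drought vs PHD6-control and 0 to 6 called in the interaction. The count higher in PHD6-control vs WT-control was 0 with upper-quartile scaling, 3 with DESeq2, 2 with 12 libraries fitted together and 0 with the replicate block. The count lower in PHD6-drought vs WT-drought was 3 with DESeq2 and 2 with no filter. In WT-drought vs WT-control, 1 was called higher with the replicate block, and 3 lower with at least 1 CPM required, since fewer genes were tested. The interaction count was 2 with DESeq2, with no filter and with at least 1 CPM required. Apart from that filter, the cause of these changes was not tested.

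Without PHD6-control replicate 1, the sign turned for *COR15B* (-0.015) and *KIN1* (-0.22) in PHD6-control vs WT-control, *CBF3* in PHD6-drought vs PHD6-control (0.042) and *CBF1* in the interaction (0.33). Without PHD6-control replicate 3 the same values were 0.41, 0.80, -1.48 and -0.92. *LTI30* turned in PHD6-drought vs WT-drought without PHD6-drought replicate 3 (-0.019) or WT-drought replicate 1 (-0.095), within a leave-one-out range up to 0.26. In WT-drought vs WT-control it turned with upper-quartile scaling (-0.042) and without WT-drought replicate 2 (-0.063) or 3 (-0.12) or WT-control replicate 1 (-0.17) or 2 (-0.032), within a range up to 0.33. None of the turned values was called. Of the other values of the 10 genes under an alternative, 620 kept their direction and call, 31 gained a call and 21 lost one.

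In the comparisons other than WT-drought vs WT-control, same-numbered libraries did not deviate together in every pair, with correlations down to -0.522. There the replicate block gave 622 higher and 96 lower genes over all genes in PHD6-control vs WT-control (839 and 142 without it) and 434 and 458 in PHD6-drought vs WT-drought (521 and 765). Over all genes and alternatives, higher and lower calls ranged from 446 to 1262 and 55 to 336 in PHD6-control vs WT-control, 68 to 1557 and 181 to 1218 in PHD6-drought vs WT-drought, 1595 to 2627 and 658 to 2361 in WT-drought vs WT-control, 709 to 2313 and 1268 to 2756 in PHD6-drought vs PHD6-control, and 142 to 491 and 846 to 1225 in the interaction. Of the counts of the gene lists, 732 stayed within 1.5 times the reported count and 108 did not. The low counts of *CBF1* and *KIN1* limit what can be said of them.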
